A study of Mus musculus with 11 samples.

Results

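The genes described here are 33 mouse chaperones and stress-response genes, chosen by name from the 52661 genes of the deposited expression table: 21 act in the endoplasmic reticulum (ER) and 12 in the cytosol or in mitochondria. Their splicing was read from 656 of the 220976 splicing events that had at least 10 reads in every library. The cells were N2A (Neuro-2A), which derive from a mouse neuroblastoma, and RNA was harvested 48 hours after transfection with a pool of small interfering RNAs (siRNAs). The pools were directed at Fubp1 (2 libraries), at Khsrp, also called Fubp2 (2 libraries), at Khsrp and Fubp1 together (2 libraries, called the double knockdown), at Rbm38 (2 libraries), or at no mouse gene (siNT, 3 libraries). Fubp1 and Khsrp are related RNA- and DNA-binding proteins with KH domains, and Rbm38 is an RNA-binding protein known as a target of p53. All 11 libraries are of 1 cell line, all cells were transfected with a lipid reagent, and the series describes the replicates as biological. Because RNA was taken from whole cultures, fewer cells of a type and less RNA per cell cannot be told apart.

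Proteins that enter the secretory pathway fold in the ER with the help of an HSP70 (BiP, made from Hspa5), an HSP90 (GRP94, from Hsp90b1), the lectins calreticulin and calnexin, and disulfide isomerases. When unfolded proteins accumulate, IRE1 (from Ern1) splices Xbp1 mRNA, ATF6 is cut to release a transcription factor, and PERK slows translation. XBP1 and ATF6 then raise transcription of chaperone and degradation genes through ER stress response elements in their promoters. The cytosol has its own HSP70 and HSP90 machines, with J proteins and nucleotide exchange factors, and HSF1 raises their transcription through heat shock elements. In secretory and neuroendocrine cells these genes are expressed at high levels without added stress.

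The ER stress response element was searched as CCAAT, 9 bases of any kind and CCACG, on both strands of the RefSeq promoter windows (GRCm38.p6), which run from 250 bases before to 50 after each gene start. It was present in 39 of 32851 windows (0.119%) and in a window of 8 members out of the 27 that have one: Calr, Canx, Creld2, Dnajc3, Hsp90b1, Hspa5, Pdia6 and Syvn1. The unfolded protein response element TGACGTGG was present in 222 windows (0.676%) and in no member window. A heat shock element, searched as GAA, 2 bases, TTC, 2 bases and GAA or the same starting with TTC, was present in 198 windows (0.603%), among them those of Hspd1, Hspe1 and Hsph1. These members were chosen as textbook stress genes, so the matches describe them and say nothing on binding in these cells. Shown are the 5 members with a match and the largest fold changes in any knockdown in the authors' deposited table, from Dnajc3 (-0.98 on the log2 scale) to Canx (-0.86), with Creld2 (-0.85) just outside. Capitals mark the matched element, read 5′ to 3′ on the strand of the gene. In Calr and Hsph1 the element lies in reverse complement.
Calr (chr8:84847035-84847133, minus strand, element starting 162 bases before the gene start): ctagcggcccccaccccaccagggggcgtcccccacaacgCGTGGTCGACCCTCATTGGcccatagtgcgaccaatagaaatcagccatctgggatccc
Canx (chr11:50325760-50325858, minus strand, element starting 145 bases before): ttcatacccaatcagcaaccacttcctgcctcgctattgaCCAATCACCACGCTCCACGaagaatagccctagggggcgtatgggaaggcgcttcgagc
Dnajc3 (chr14:118937787-118937885, plus strand, element starting 105 bases before): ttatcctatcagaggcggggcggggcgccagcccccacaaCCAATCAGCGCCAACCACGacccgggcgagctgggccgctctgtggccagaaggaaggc
Pdia6 (chr12:17266451-17266549, plus strand, element starting 98 bases before): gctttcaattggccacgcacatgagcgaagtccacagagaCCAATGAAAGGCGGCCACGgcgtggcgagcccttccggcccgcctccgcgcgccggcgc
Hsph1 (chr5:149636280-149636308, minus strand, after the gene start): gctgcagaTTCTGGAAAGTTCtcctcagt

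The targeted genes were low in their own knockdowns. In the authors' deposited table, which gives 1 RPKM value per group (reads per kilobase of transcript and 1000000 reads), Fubp1 stood at 27.9 RPKM after Fubp1 knockdown and 19.8 after double knockdown, against 180 in siNT. Khsrp stood at 8.06 RPKM after Khsrp knockdown and 6.77 after double knockdown, against 47.0 in siNT, and Rbm38 at 4.03 after Rbm38 knockdown, against 34.5 in siNT, in the same authors' deposited table. Khsrp was also lower after Rbm38 knockdown, at 33.8 RPKM (log2 fold change -0.70, FDR 0.0243 in the authors' deposited table). Of 12 neuroblastoma and sympathoadrenal markers, 11 reached 1 RPKM in every group. The 14 markers of immune, stromal, glial, endothelial and epithelial cells summed to 5.51 to 9.39 RPKM in the knockdowns and 5.85 in siNT. Libraries held 20006125 to 46251983 spliced reads. By the numbers in the library names they form an early set, numbers 1 to 4 (both Fubp1 knockdown libraries with siNT A and B), and a later set, numbers 8 to 27 (the other 6 knockdown libraries with siNT C). The labels do not say what the numbers stand for.

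Most of the chaperone genes fell after Fubp1 knockdown, fewer fell in the double knockdown and after Rbm38 knockdown, and 1 fell after Khsrp knockdown. By the authors' deposited test at a false discovery rate (FDR) under 0.05, which covered 32 of the 33 members, 3 members were higher and 19 lower after Fubp1 knockdown, against 12% and 10.5% of the 23378 genes tested. After Khsrp knockdown 0 were higher and 1 lower (3.82% and 4.34% of all genes). In the double knockdown 0 were higher and 12 lower (13.2% and 13.7%). After Rbm38 knockdown 2 were higher and 7 lower (7.96% and 7.02%). The median log2 fold change of the members in the authors' deposited table was -0.49, -0.12, -0.30 and -0.11 for Fubp1, Khsrp, double and Rbm38 knockdown, beside medians within 0.023 of 0 over all genes tested. At 50 RPKM or more in siNT, the medians over all genes were -0.29, 0.03, -0.10 and -0.11 in the same order. For the 21 members at that level they were -0.53, -0.08, -0.36 and -0.22. The 4 comparisons share the 3 siNT libraries, so they are not independent of each other.

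The ER members, 21 of the 32 tested, carried most of the lower calls after Fubp1 and double knockdown, but not after Rbm38 knockdown. Because they are most of the members tested, holding most of the calls is not by itself particular to them. Of the 21 ER members, 2 were higher and 15 lower after Fubp1 knockdown, 0 and 1 after Khsrp knockdown, 0 and 9 for the double knockdown, and 2 and 3 after Rbm38 knockdown, in the authors' deposited table. Of the 11 cytosolic and mitochondrial members tested, 1 was higher and 4 lower after Fubp1 knockdown, 0 and 0 after Khsrp knockdown, 0 and 3 for the double knockdown, and 0 and 4 after Rbm38 knockdown. Many chaperone genes are abundant, and abundant genes as a class were often lower. Among the 2747 genes with at least 50 RPKM in siNT, the authors' deposited table called 29.8% lower after Fubp1 knockdown, 7.1% after Khsrp knockdown, 26.2% after double knockdown and 19.5% after Rbm38 knockdown. Of the 21 members above that level, 15 were lower after Fubp1 knockdown (71.4%), 0 after Khsrp knockdown, 9 in the double knockdown (42.9%) and 6 after Rbm38 knockdown (28.6%).

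**Figure D1:**
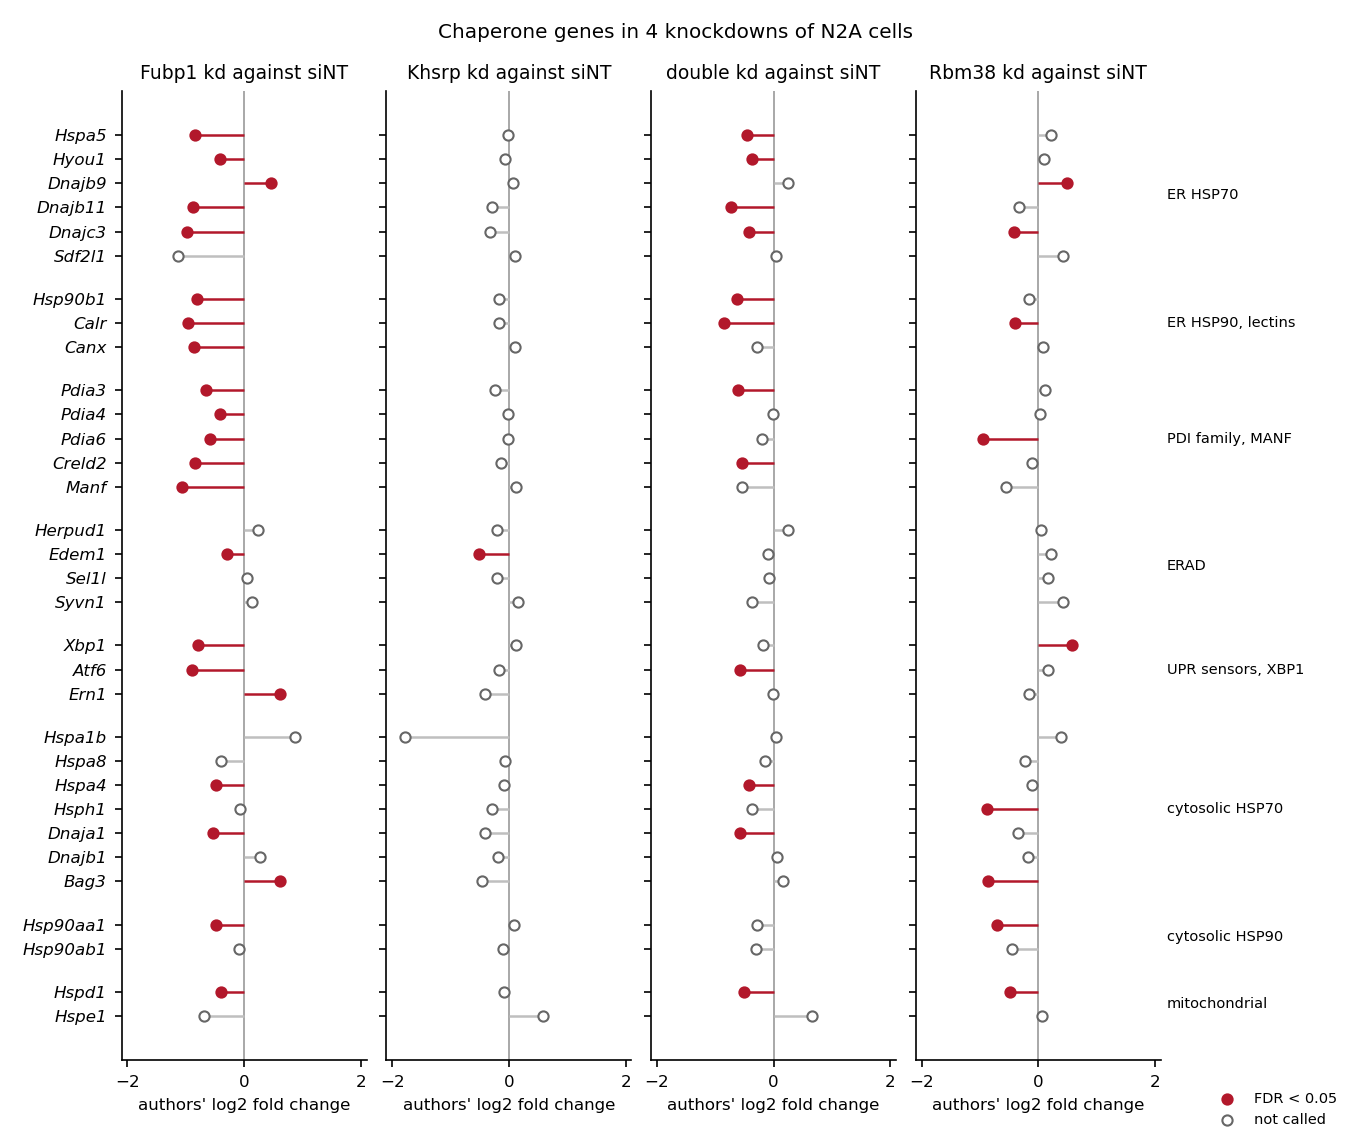
Log2 fold change against siNT, from the authors' deposited table, of the 32 members tested, in 1 panel per knockdown and grouped by role. Filled red points passed an FDR of 0.05. Red points below 0 number 19 after Fubp1 knockdown, 1 after Khsrp knockdown, 12 after double knockdown and 7 after Rbm38 knockdown.

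The deposited expression table has no value per library. The spread between libraries was therefore read from the splicing table, whose intron entries give the reads that span each exon-exon junction. These spliced reads were summed per gene, scaled to 1000000 reads of an effective library size (spliced RPM), and tested with limma over 10961 genes with the Benjamini-Hochberg adjustment. The values are not per length, so they compare libraries and not genes. They come from the same libraries as the authors' deposited table and are not independent of it. They covered 26 members. Hspa1a, Hspa1b, Hspa8, Dnaja1, Hsp90aa1, Hspd1 and Hspe1 had no intron entry, so for these 7 no spread can be given. By this test 15 members passed after Fubp1 knockdown (1 higher, 14 lower; background 33.4% of genes in either direction) and 0 after Khsrp knockdown (background 9.98%), where 5 had an unadjusted p under 0.05. In the double knockdown 11 passed (1 higher, 10 lower; background 39.3%), and after Rbm38 knockdown 6 passed (2 higher, 4 lower; background 22.8%). Both of these totals lay near the background share. By direction, 2109 of the 10961 genes were higher and 2204 lower in the double knockdown, and 1217 and 1287 after Rbm38 knockdown. After Fubp1 knockdown 1947 were higher and 1715 lower. Every member called by the authors and covered here moved in the authors' direction in these reads: 19 of 19, 1 of 1, 10 of 10 and 7 of 7.

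How far these calls rest on single libraries differed between knockdowns. Leaving out each library in turn, 8 of the 15 calls held every time after Fubp1 knockdown: Calr, Canx, Creld2, Dnajb11, Hsp90b1, Hspa5, Pdia3 and Pdia6. The count was 8 without Fubp1 knockdown A (background 13.6%). For the double knockdown 4 of the 11 calls held every time, those of Calr, Dnajb11, Hsp90b1 and Pdia3. The count there was 4 without double knockdown A (background 24.1%), 6 without siNT B (30.6%) and 7 without siNT A (31.4%). After Rbm38 knockdown 2 of the 6 held every time, Hsph1 and Pdia6, with 3 calls without siNT A (background 13.4%), 3 without siNT B (13.0%) and 11 without siNT C (44.4%). Without siNT C, 8 members were called after Khsrp knockdown, where 39.4% of all genes were. With a term for the 2 library sets in the fit, all 14 lower calls of the Fubp1 knockdown held (background 37.6%). Every knockdown lies in 1 set, so this term compares Fubp1 knockdown with siNT A and B alone. The 14 members were lower there by log2 ratios of -0.97 to -0.41. For the Khsrp, double and Rbm38 knockdowns against siNT, here and below, the term leaves siNT C as the only control library. With that term the counts were 0 after Khsrp knockdown (background 4.96%), 9 in the double knockdown (2 higher, 7 lower; background 35.8%) and 5 after Rbm38 knockdown (2 higher, 3 lower; background 21.3%). Scaling by total reads in place of the effective size raised the median of all genes by 0.109 to 0.122 on the log2 scale in the Fubp1, double and Rbm38 knockdowns. The member counts became 1 higher and 12 lower after Fubp1 knockdown (background 23.6% and 11.8%), 2 and 5 for the double knockdown (24.9% and 16.1%), and 4 and 2 after Rbm38 knockdown (16.4% and 7.38%), where the member median turned from -0.04 to 0.08.

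Hspa5, whose product BiP is the ER HSP70 and holds the stress sensors inactive, was lower after Fubp1 knockdown. It had 569 and 556 spliced RPM in the Fubp1 knockdown libraries, 1106 and 1078 after Khsrp knockdown, 819 and 837 after double knockdown and 1313 and 1269 after Rbm38 knockdown, against 932, 957 and 1262 in siNT. The Fubp1 and double knockdown libraries lay below every siNT library, and the Rbm38 knockdown libraries lay above them by little. The log2 fold change was -0.89 ± 0.12 after Fubp1 knockdown (SE, limma adjusted p = 0.000879). In the double knockdown it was -0.33 (adjusted p = 0.0629), or -0.61 with the library sets in the fit (adjusted p = 0.00065). In the authors' deposited table Hspa5 stood at 207 RPKM after Fubp1 knockdown, 379 after Khsrp knockdown, 270 after double knockdown and 465 after Rbm38 knockdown, against 391 in siNT, and passed in the Fubp1 (FDR 7.97e-09) and double knockdowns (FDR 0.00246).

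The co-chaperones of BiP did not all follow it. Dnajb11 and Dnajc3 are J proteins of the ER that hand substrates to BiP, and Dnajc3 also inhibits PERK. Dnajb11 had 153 and 150 spliced RPM after Fubp1 knockdown and 177 and 144 after double knockdown, against 308, 270 and 258 in siNT, with no overlap in either case. Its log2 fold changes were -0.88 ± 0.17 (adjusted p = 0.00377) after Fubp1 knockdown and -0.79 (adjusted p = 0.00496) in the double knockdown. Dnajc3 had 33 and 37.9 after Fubp1 knockdown, against 59.7, 54.1 and 47.5 in siNT (log2 fold change -0.61, adjusted p = 0.0133). That call was lost without either Fubp1 knockdown library (adjusted p up to 0.135). The authors' deposited table gave Dnajc3 a log2 fold change of -0.98 after Fubp1 knockdown (FDR 4.76e-13), -0.43 in the double knockdown (FDR 0.00302) and -0.41 after Rbm38 knockdown (FDR 0.00892). In the spliced reads Dnajc3 did not pass in the double knockdown (-0.13, adjusted p = 0.529), and with the library sets in the fit its direction turned (0.05, adjusted p = 0.866).

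Dnajb9, the J protein ERdj4 that keeps IRE1 inactive through BiP, went the other way. In the authors' deposited table it rose after Fubp1 knockdown (30.6 RPKM, against 22.8 in siNT, FDR 0.0233) and after Rbm38 knockdown (29.2 RPKM, FDR 0.0209). Its spliced reads were 14.3 and 13.9 RPM after Fubp1 knockdown, 14.4 and 12.3 after Khsrp knockdown, 18.4 and 15.3 after double knockdown and 15.7 and 19.7 after Rbm38 knockdown, against 10.0, 9.23 and 13.6 in siNT. The knockdown libraries lay above all siNT libraries except after Khsrp knockdown, and siNT C, of the later set, was the highest siNT library. The log2 fold change passed in the double knockdown (0.66 ± 0.20, adjusted p = 0.0233) and after Rbm38 knockdown (0.72 ± 0.19, adjusted p = 0.0217). Each call held in 8 of the 11 fits that left out 1 library. After Fubp1 knockdown the change did not pass (0.40, adjusted p = 0.128). With the library sets in the fit this order changed: Fubp1 knockdown passed (0.56, adjusted p = 0.0245), while the double (0.31, adjusted p = 0.253) and Rbm38 knockdowns (0.37, adjusted p = 0.203) did not.

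Hyou1, an ER HSP110 that exchanges nucleotide on BiP, was lower after Fubp1 knockdown and in the double knockdown. It had 720 and 754 spliced RPM after Fubp1 knockdown and 672 and 818 after double knockdown, against 968, 1036 and 892 in siNT. The log2 fold changes were -0.39 (adjusted p = 0.0208) and -0.38 (adjusted p = 0.0198). Both calls were lost without 1 of several libraries (adjusted p up to 0.152 without Fubp1 knockdown A and 0.193 without double knockdown A), and the double knockdown call also with the library sets in the fit (-0.27, adjusted p = 0.124). Sdf2l1, an ER protein that works with Dnajb11, had the widest spread of the group: 13.3 and 12.1 spliced RPM after Fubp1 knockdown, 45.6 and 16.6 after double knockdown and 16.2 and 61.4 after Rbm38 knockdown, against 28.4, 21.9 and 33.1 in siNT. It passed no test, although its fold change after Fubp1 knockdown in the authors' deposited table was -1.12 on the log2 scale (FDR 0.12).

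The ER HSP90 and both lectin chaperones were among the clearest decreases. Calr, the soluble lectin calreticulin, had 707 and 725 spliced RPM after Fubp1 knockdown, 1435 and 1329 after Khsrp knockdown, 924 and 810 after double knockdown and 1057 and 1358 after Rbm38 knockdown, against 1381, 1420 and 1588 in siNT. The libraries of the Fubp1, double and Rbm38 knockdowns all lay below those of siNT. The log2 fold change was -1.03 ± 0.12 after Fubp1 knockdown (adjusted p = 0.000395) and -0.75 ± 0.12 in the double knockdown (adjusted p = 0.00119). After Rbm38 knockdown it was -0.28 (adjusted p = 0.117), whereas the authors' deposited table called Calr lower there as well (-0.40, FDR 0.0398). In RPKM, the authors' deposited table had Calr at 295 after Fubp1 knockdown, 437.5 after Khsrp knockdown, 274.5 after double knockdown and 390 after Rbm38 knockdown, against 545 in siNT.

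Hsp90b1, which encodes GRP94, the HSP90 that folds integrins and Toll-like receptors, had 1306 and 1374 spliced RPM after Fubp1 knockdown and 1443 and 1756 after double knockdown, against 2185, 2441 and 2615 in siNT. Both knockdowns lay below all siNT libraries. The log2 fold changes were -0.85 ± 0.12 (adjusted p = 0.000857) after Fubp1 knockdown and -0.60 (adjusted p = 0.00357) in the double knockdown. Khsrp (2124 and 2266) and Rbm38 knockdown (2415 and 2062) overlapped siNT, with no call. Canx, the membrane-bound lectin calnexin, had 861 and 907 after Fubp1 knockdown and 1162 and 1368 after double knockdown, against 1492, 1618 and 1607 in siNT. It passed after Fubp1 knockdown (-0.83 ± 0.11, adjusted p = 0.000538). In the double knockdown its change was smaller (-0.32, adjusted p = 0.0376) and lost its call without any of 7 libraries (adjusted p up to 0.279, without double knockdown A) and with the library sets in the fit (adjusted p = 0.0683). The authors' deposited table did not call it there (-0.29, FDR 0.12).

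All 5 members of the disulfide isomerase and secreted group were lower after Fubp1 knockdown in the authors' deposited table. Pdia3, the isomerase that works with calnexin and calreticulin on glycoproteins, had 753.5 and 760 spliced RPM after Fubp1 knockdown and 838 and 812 after double knockdown, against 1246, 1119 and 1336 in siNT. Neither knockdown overlapped siNT, and the log2 fold changes were -0.70 (adjusted p = 0.00113) after Fubp1 knockdown and -0.57 (adjusted p = 0.00227) in the double knockdown. Pdia4, another isomerase, moved less: 220 and 237 after Fubp1 knockdown, against 282, 323 and 319 in siNT (-0.43, adjusted p = 0.0308, up to 0.196 without Fubp1 knockdown A).

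Pdia6, an isomerase that also binds IRE1 and limits its activity, was lowest after Rbm38 knockdown. It had 486 and 506 spliced RPM after Fubp1 knockdown, 738 and 795 after Khsrp knockdown, 627 and 728.5 after double knockdown and 400 and 401 after Rbm38 knockdown, against 710, 770.5 and 793 in siNT. The Rbm38 knockdown libraries lay below the Fubp1 knockdown libraries as well as below siNT. The log2 fold change was -0.92 ± 0.10 after Rbm38 knockdown (adjusted p = 0.000545) and -0.61 ± 0.10 after Fubp1 knockdown (adjusted p = 0.00142). It stayed at -0.17 in the double knockdown (adjusted p = 0.197). The authors' deposited table gave 152 RPKM after Fubp1 knockdown, 193 after Khsrp knockdown, 172 after double knockdown and 105 after Rbm38 knockdown, against 218 in siNT, with an FDR of 4.59e-10 for Rbm38 knockdown.

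Creld2, an ER protein with isomerase-like motifs that is induced by ER stress, had 57.0 and 54.5 spliced RPM after Fubp1 knockdown, against 103.5, 89.9 and 120 in siNT (log2 fold change -0.89, adjusted p = 0.00212). After double knockdown it had 77.6 and 70.2 (-0.48, adjusted p = 0.0313), a call lost without any of 5 libraries (adjusted p up to 0.149, without double knockdown B). Manf, a small ER protein that is secreted under stress and protects neurons, had 90.0 and 95.5 after Fubp1 knockdown, 230 and 211 after Khsrp knockdown, 159 and 116.5 after double knockdown and 99.8 and 174.5 after Rbm38 knockdown, against 189, 170 and 239 in siNT. Its change after Fubp1 knockdown was the largest among the ER members that passed in these reads, at -1.08 ± 0.23 (adjusted p = 0.00699, or 0.0639 without Fubp1 knockdown A). The double knockdown and Rbm38 knockdown libraries spread widely and did not pass (adjusted p = 0.104 and 0.101).

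**Figure D2:**
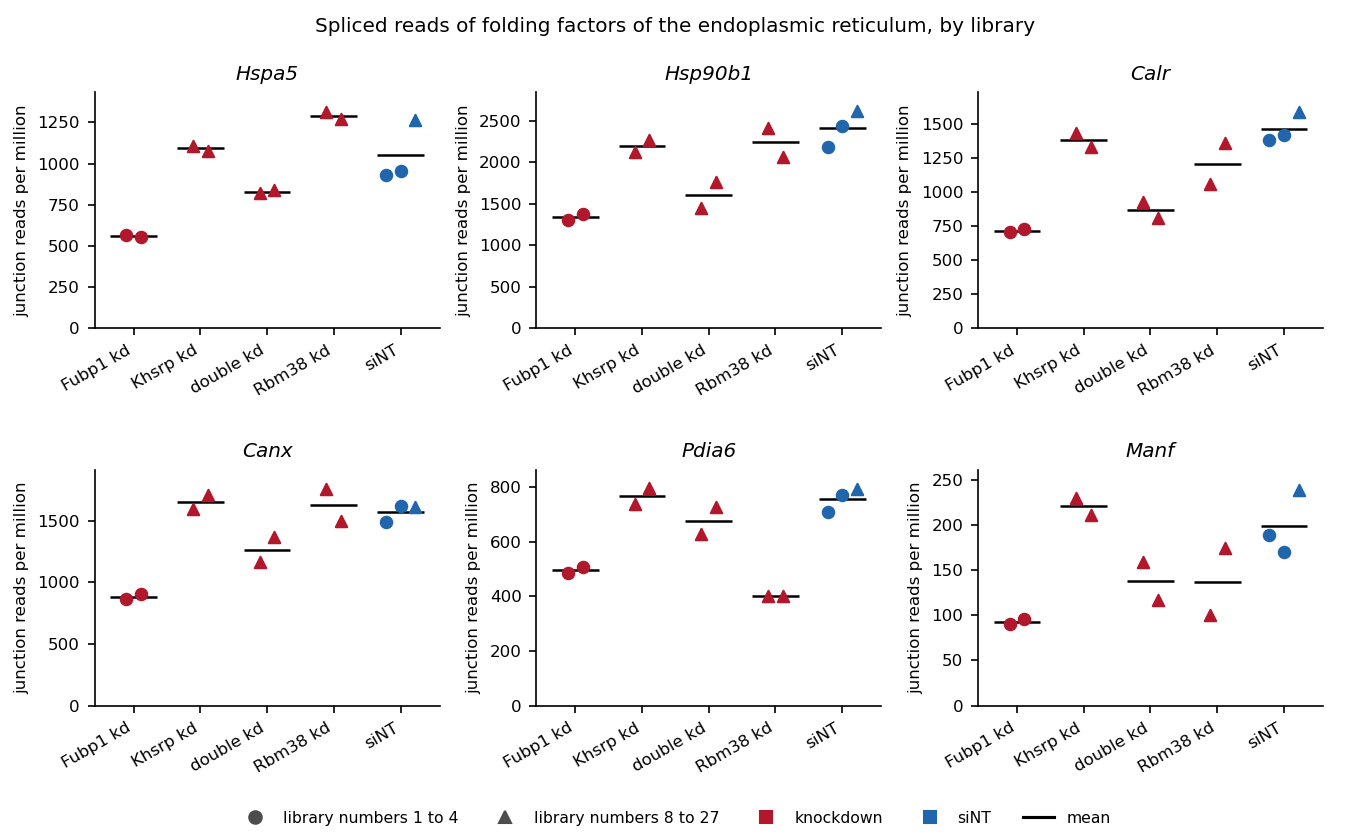
Spliced RPM (junction reads scaled to 1000000) in each library for Hspa5, Hsp90b1, Calr, Canx, Pdia6 and Manf, with knockdown libraries in red, siNT in blue and group means as lines. The Fubp1 knockdown points lie below every siNT point in all 6 panels. For Pdia6 the Rbm38 knockdown points, at 400 and 401, are the lowest.

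As a group, the genes of ER-associated degradation moved little after Fubp1 knockdown, while Edem1 and Syvn1 each had a call in another knockdown. Herpud1, Edem1, Sel1l and Syvn1 act in the removal of misfolded proteins: Edem1 picks glycoproteins for removal, Sel1l and Syvn1 (HRD1) form the ubiquitin ligase, and Herpud1 assembles it. Of these 4 members, 0 were higher and 1 lower after Fubp1 knockdown, 0 and 1 after Khsrp knockdown, 0 and 0 for the double knockdown, and 0 and 0 after Rbm38 knockdown, in the authors' deposited table. Their median log2 fold change was 0.09 after Fubp1 knockdown, against -0.86 for the 6 members of the ER HSP70 system and for the 3 ER HSP90 and lectin chaperones. Edem1 was the only member called after Khsrp knockdown in the authors' deposited table (21.1 RPKM, against 30.6 in siNT, log2 fold change -0.51, FDR 2.33e-04). Its spliced reads there were 74.5 and 76.4 RPM, below the 96.1, 98.9 and 103 of siNT, and did not pass (-0.40, adjusted p = 0.0555). Syvn1 had 78.8 and 79.2 spliced RPM after Rbm38 knockdown, against 58.1, 63.7 and 47.7 in siNT, and passed there (0.49 ± 0.12, adjusted p = 0.0197), while the authors' deposited table did not call it (0.42, FDR 0.10). The call was lost without either Rbm38 knockdown library (adjusted p up to 0.0869). Against siNT, Herpud1 passed no test and Sel1l passed only after Rbm38 knockdown with the library sets in the fit (0.42, adjusted p = 0.0155).

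The sensors and the transcription factor of the response did not move together. Atf6, the membrane-bound transcription factor, had 52.2 and 51.2 spliced RPM after Fubp1 knockdown, 68.9 and 65.1 after Khsrp knockdown, 52.5 and 64.4 after double knockdown and 90.7 and 86.9 after Rbm38 knockdown, against 94.5, 102.5 and 67.1 in siNT. It passed after Fubp1 knockdown (-0.76 ± 0.17, adjusted p = 0.00914) and in the double knockdown (-0.59, adjusted p = 0.0251), and in the authors' deposited table in the same 2 knockdowns (FDR 8.54e-06 and 0.00514). siNT C, the only siNT library of the later set, was the lowest siNT library for Atf6. With the library sets in the fit, the Fubp1 call held (-0.93, adjusted p = 0.000354) and the double knockdown did not pass (-0.21, adjusted p = 0.235). Leaving out a Fubp1 knockdown library gave an adjusted p of up to 0.0707, and leaving out double knockdown A gave 0.197.

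Ern1, which encodes the sensor IRE1, was higher after Fubp1 knockdown. It had 63.6 and 62.8 spliced RPM after Fubp1 knockdown, 28.7 and 24.4 after Khsrp knockdown, 40.7 and 35.4 after double knockdown and 31.5 and 33.3 after Rbm38 knockdown, against 43.0, 46.8 and 28.1 in siNT. The siNT libraries of the 2 sets differed here by about as much as Fubp1 knockdown did from siNT: siNT C was 0.68 lower on the log2 scale than siNT A and B, while the change after Fubp1 knockdown was 0.70 ± 0.19 (adjusted p = 0.0177), or 0.49 with the library sets in the fit (adjusted p = 0.00885). Without either Fubp1 knockdown library the adjusted p was up to 0.102. In the double knockdown the fold change was -0.03 (adjusted p = 0.925), or 0.44 with the library sets in the fit (adjusted p = 0.0425). The authors' deposited table called Ern1 only after Fubp1 knockdown (10.4 RPKM, against 7.71 in siNT, log2 fold change 0.62, FDR 3.66e-04).

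Xbp1 encodes the transcription factor that IRE1 activates by cutting a short intron out of the cytosolic mRNA. In the authors' deposited table it fell after Fubp1 knockdown (31.2 RPKM, against 54.0 in siNT, FDR 1.50e-04) and rose after Rbm38 knockdown (77.8 RPKM, FDR 0.00862). Its spliced reads were 14.8 and 13.0 RPM after Fubp1 knockdown, 47.3 and 32.4 after Khsrp knockdown, 80.4 and 24.8 after double knockdown and 37.3 and 138 after Rbm38 knockdown, against 47.3, 24.6 and 29.2 in siNT. Both Fubp1 knockdown libraries lay below all siNT libraries, but double knockdown A and Rbm38 knockdown B stood far above their partners. No Xbp1 contrast passed in these reads (-1.21 ± 0.68, adjusted p = 0.197 after Fubp1 knockdown, and 1.16 ± 0.57, adjusted p = 0.171 after Rbm38 knockdown). The IRE1 intron is shown in capitals within its exon, from GENCODE on GRCm38, because its removal is the direct readout of IRE1 activity.
Xbp1 (chr11:5524252-5524337, plus strand, coding, exon 4): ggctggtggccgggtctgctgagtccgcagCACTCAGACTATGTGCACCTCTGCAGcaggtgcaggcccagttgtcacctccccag
The intron is 26 bases long (chr11:5524282-5524307). None of the Xbp1 events used here is of that length, so the share of mRNA spliced by IRE1 was not measured. An event of 43 nt of Xbp1 that ends next to it, the part of the exon before the intron, was included at 98.18 and 95.88% after Fubp1 knockdown, against 97.2, 97.56 and 95.14% in siNT, and was called in no knockdown.

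**Figure D3:**
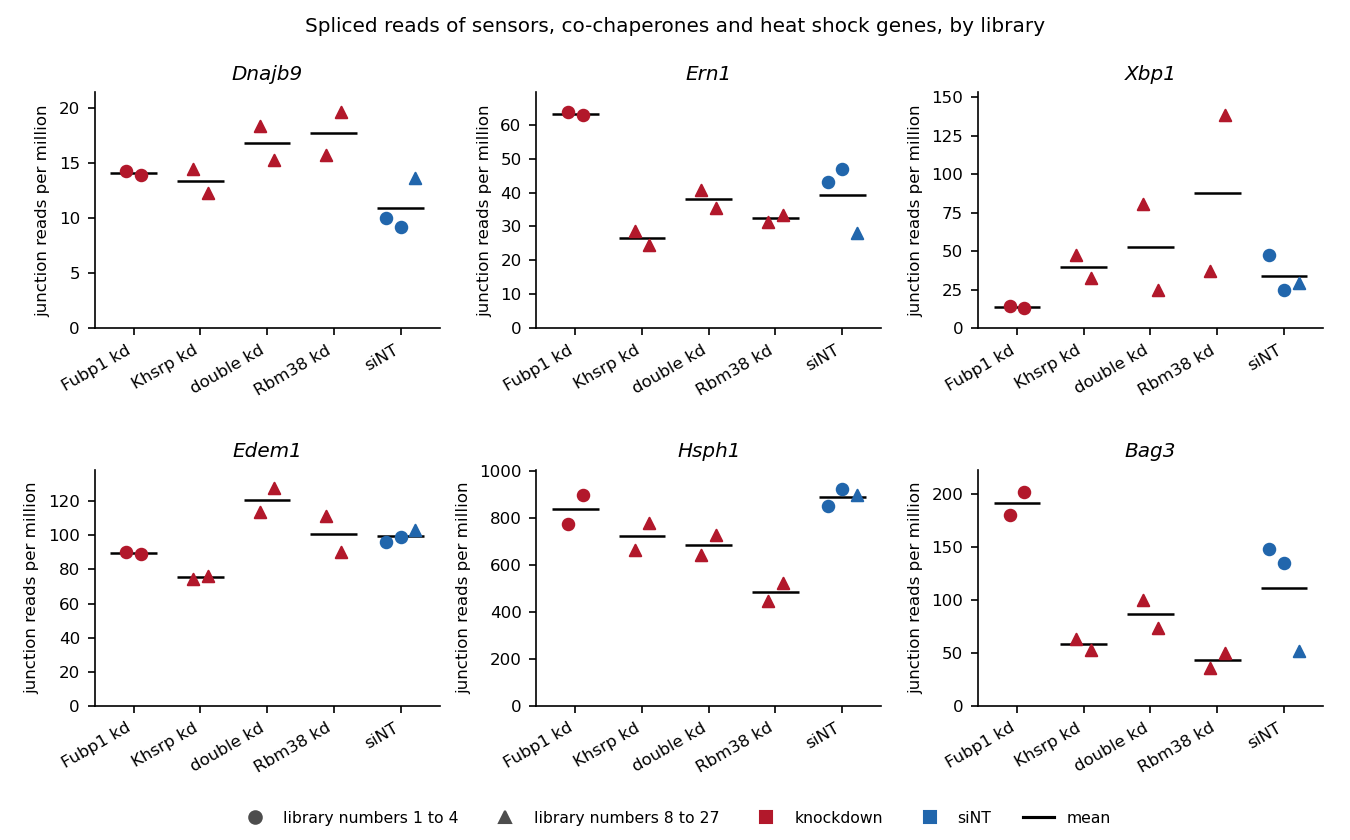
Spliced RPM (junction reads scaled to 1000000) in each library for Dnajb9, Ern1, Xbp1, Edem1, Hsph1 and Bag3, with knockdown libraries in red, siNT in blue, circles for library numbers 1 to 4, triangles for 8 to 27 and lines at group means. For Ern1 and Bag3 the siNT triangle lies well below the siNT circles, and for Xbp1 double knockdown A and Rbm38 knockdown B stand above their partners.

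Single cytosolic chaperones fell after Rbm38 knockdown, Hsph1 the most clearly. Hsph1, the cytosolic HSP110 that exchanges nucleotide on HSP70, had 771.5 and 898 spliced RPM after Fubp1 knockdown, 662 and 778 after Khsrp knockdown, 642 and 728 after double knockdown and 443 and 520 after Rbm38 knockdown, against 848, 923 and 894 in siNT. Rbm38 knockdown gave the lowest values of all groups (-0.89 ± 0.12, adjusted p = 0.00129), and that call held without any single library. The double knockdown passed with a smaller change (-0.38, adjusted p = 0.0295, up to 0.2 without double knockdown A and 0.0771 with the library sets in the fit), while the authors' deposited table had it at an FDR of 0.07. Fubp1 knockdown overlapped siNT. Hsph1 stood in the authors' deposited table at 88.9 RPKM after Rbm38 knockdown, against 179 in siNT (FDR 2.25e-06).

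Hsp90aa1 and Hsp90ab1 encode the inducible and the constitutive cytosolic HSP90. In the authors' deposited table Hsp90aa1 fell after Rbm38 knockdown (777 RPKM, against 1347 in siNT, log2 fold change -0.72, FDR 7.27e-04) and after Fubp1 knockdown (987 RPKM, -0.48, FDR 0.0262). Hsp90ab1 did not pass in the authors' deposited table (-0.45, FDR 0.062 after Rbm38 knockdown). Its spliced reads were 10270 and 8621 RPM after Rbm38 knockdown, against 11850, 13700 and 11670 in siNT, below all siNT libraries and barely past the threshold (-0.40 ± 0.13, adjusted p = 0.0484, up to 0.262 without Rbm38 knockdown B). With the library sets in the fit it did not pass (-0.31, adjusted p = 0.206).

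Bag3, a co-chaperone that couples HSP70 to autophagy, was called in opposite directions by the authors' deposited table: higher after Fubp1 knockdown (80.8 RPKM, against 54.6 in siNT, FDR 0.0431) and lower after Rbm38 knockdown (33.2 RPKM, FDR 0.00606). Its spliced reads were 180 and 202 RPM after Fubp1 knockdown, 63.4 and 52.5 after Khsrp knockdown, 99.3 and 73.3 after double knockdown and 35.7 and 49.9 after Rbm38 knockdown, against 148, 135 and 51.6 in siNT. The siNT libraries themselves split by set, with siNT C 1.46 lower on the log2 scale than siNT A and B. The changes were 0.90 ± 0.37 after Fubp1 knockdown (adjusted p = 0.0867) and -1.28 ± 0.41 after Rbm38 knockdown (adjusted p = 0.0488). With the library sets in the fit neither passed (0.43, adjusted p = 0.0968, and -0.29, adjusted p = 0.447), and the double knockdown did (0.73, adjusted p = 0.0406). How much of the authors' Bag3 calls the library sets account for was not tested. The spliced-read call of Bag3 after Rbm38 knockdown held in only 1 of the 11 fits that left out 1 library.

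Hspa4, a relative of Hsph1, fell after Fubp1 knockdown (516 and 532 spliced RPM, log2 fold change -0.46, adjusted p = 0.00361) and in the double knockdown (565 and 567, -0.35, adjusted p = 0.011), against 681, 714 and 769 in siNT. Without 1 library of the knockdown itself the adjusted p was up to 0.0513 after Fubp1 knockdown and up to 0.0642 in the double knockdown. Dnaja1, a J protein of cytosolic HSP70, was called lower in the same 2 knockdowns in the authors' deposited table (-0.53, FDR 0.00283, and -0.58, FDR 7.09e-04). Dnajb1, the J protein that HSF1 induces, passed no test, and neither did the constitutive HSP70 gene Hspa8, at 1406, 1199, 1093 and 1106 RPKM in the Fubp1, Khsrp, double and Rbm38 knockdowns and 1604 in siNT in the authors' deposited table. The inducible HSP70 genes Hspa1a and Hspa1b were listed at 0 to 0.03 RPKM in every group. They are near-identical copies, so reads could not be split between them with certainty, and Hspa8, Hsp90aa1, Hsp90ab1, Hspd1 and Hspe1 have processed pseudogenes that could share reads with them.

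Hspd1 and Hspe1 encode HSP60 and HSP10, the chaperonin of the mitochondrial matrix, and are transcribed away from each other from 1 promoter region. Both of their promoter windows held the same heat shock element (chr1:55088059-55088076). Hspd1 was lower in the authors' deposited table after Fubp1 knockdown (806 RPKM, FDR 0.0233), in the double knockdown (619 RPKM, FDR 0.00148) and after Rbm38 knockdown (623 RPKM, FDR 0.00515), against 984 RPKM in siNT. Hspe1 was not called in any: it stood at 425 RPKM after Fubp1 knockdown, 999 after Khsrp knockdown, 1032 after double knockdown and 695 after Rbm38 knockdown, against 682.5 in siNT in the authors' deposited table. Neither gene had intron entries, so no spread between libraries can be given for the wide range of Hspe1.

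Setting the double knockdown against the single ones asks what the second siRNA pool added. Against Khsrp knockdown, whose libraries are of the same set, 1 member was higher and 5 lower in spliced reads (background 20.7% of genes in either direction): Edem1 was higher, and Calr, Canx, Hsp90b1, Pdia3 and Syvn1 were lower. With the library sets in the fit, 4 were higher (Bag3, Edem1, Ern1 and Sel1l) and 8 lower (the same 5 with Creld2, Hspa4 and Hspa5; background 33.9%). Calr showed the largest decrease that passed in both fits, with 924 and 810 spliced RPM in the double knockdown, against 1435 and 1329 after Khsrp knockdown (-0.67, adjusted p = 0.00755). Edem1 had 114 and 128 in the double knockdown, against 74.5 and 76.4 after Khsrp knockdown (0.68 ± 0.13, adjusted p = 0.00532).

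Against Fubp1 knockdown, 4 members were higher in the double knockdown (Canx, Edem1, Hspa5 and Pdia6) and 2 lower (Ern1 and Syvn1; background 32.9%). Hspa5 had 819 and 837 spliced RPM in the double knockdown, against 569 and 556 after Fubp1 knockdown (0.56, adjusted p = 0.0154). Canx was higher by 0.51 (adjusted p = 0.011) and Pdia6 by 0.45 (adjusted p = 0.0127). These 2 groups are in different library sets. With the sets in the fit 1 member passed, Atf6 (background 853 of 10961 genes). In that fit Hspa5 was at 0.14 (adjusted p = 0.441), Canx at an adjusted p of 0.136 and Pdia6 at 0.179. In both fits the share of the 26 members that passed was below that of all genes. Whether Khsrp siRNA weakened the decreases or the sets differ cannot be told apart with 1 siNT library in the later set.

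Few splicing events of the members had room to change by much, and 0 were called here. Each event has a PSI (percent spliced in), which is the percentage of informative reads that include an exon, an intron or the longer form of an exon. Of the 656 events, 294 had a mean PSI below 1 and 287 above 99, and 74 events of 20 members could be tested (37 introns, 17 cassette exons, 12 alternative 5′ and 8 alternative 3′ splice sites), or 11.3% of the member events against 27.2% of all events. In limma fits of the log odds of inclusion, calls needed 10 PSI points of difference and an adjusted p under 0.05, and 0 member events passed in any of the 4 knockdowns. Of the 74, 13 had a mean PSI from 5 to 95, against 20591 of the 60139 events of all genes. When only such events were fitted, 0 of the 13 passed. The others lay below 5 or above 95, with little room for a difference of 10 points, so their 0 calls say little. The backgrounds over 60139 events were 0.875% after Fubp1 knockdown, 0.0382% after Khsrp knockdown, 7.45% after double knockdown and 0.125% after Rbm38 knockdown. At an unadjusted p under 0.05 there were 3, 11, 8 and 6 member events in the same order, or 4.05%, 14.9%, 10.8% and 8.11% of the 74, against 14.8%, 10.9%, 26.8% and 11.2% of all events, and 0 passed in an unweighted fit. Median differences of the 74 events were 0.74 to 0.96 points.

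The event nearest to a call was intron 1 of Hspa5 in the double knockdown. This intron is 82 nt long with 69.5% G and C, and lies in the 5′ UTR between an exon of 177 nt and the exon with the start codon (deposited as chr2:34627667-34627748, with no build named for the splicing table; matched by its length to the GENCODE annotation at chr2:34772147-34772228 on GRCm38, plus strand). Its splice sites are shown because they bound the tested member intron with the highest mean PSI, 15.12. Capitals mark the first 6 and the last 3 bases of the intron.
Hspa5 intron 1, 5′ end (chr2:34772139-34772168): tgtgtgagGTAAGCgccgcggcctgctgct
Hspa5 intron 1, 3′ end (chr2:34772204-34772233): accccgaggcccctgtcgccctCAGaccag
It was retained at 15.38 and 17.0% after Fubp1 knockdown, 14.92 and 15.21% after Khsrp knockdown, 7.79 and 8.05% after double knockdown and 14.95 and 19.3% after Rbm38 knockdown, against 17.83, 17.83 and 18.06% in siNT. The double knockdown libraries lay far below all others. The event had 3993 to 18185 reads per library. Means were 7.92 ± 0.18 in the double knockdown and 17.91 ± 0.13 in siNT (SD, n = 2 and n = 3), a difference of -9.99 points with a limma adjusted p of 1.59e-04, or 0.00265 with the library sets in the fit. The difference fell short of the 10-point minimum by 0.01 and passed it without siNT A, siNT B or double knockdown B (-10.03, -10.03 and -10.12).

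The lower retention of Hspa5 intron 1 was seen with both pools together. The single knockdowns differed from siNT by -1.72 points (Fubp1, adjusted p = 0.733) and -2.84 points (Khsrp, adjusted p = 0.6). The double knockdown was lower than Khsrp knockdown by -7.15 points (adjusted p = 0.00627, or 0.0032 with the library sets in the fit) and lower than Fubp1 knockdown by -8.27 points (adjusted p = 0.0033, or 0.165 with the sets in the fit). The authors' deposited table marks this intron as changed in the Fubp1, Khsrp and double knockdowns.

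With no minimum difference, 4 member events passed in the double knockdown, 2 higher and 2 lower (background 14.8%). Besides Hspa5 intron 1 they were a 5′ splice site of Hspd1, an exon of Herpud1 and an exon of Hsph1. The Hspd1 site, which adds 210 nt, was used at 1.03 and 0.8% after Fubp1 knockdown, 0.66 and 1.08% after Khsrp knockdown, 5.34 and 3.57% after double knockdown and 0.21 and 0.16% after Rbm38 knockdown, against 0, 0.15 and 0.47% in siNT. Its share in the double knockdown lay above all other libraries (4.25 points, adjusted p = 2.92e-05), above Fubp1 knockdown (3.54 points, adjusted p = 0.00143) and above Khsrp knockdown (3.58 points, adjusted p = 0.00221). The 106-nt exon of Herpud1 was included at 97.54 and 97.28% in the double knockdown, against 99.43, 99.43 and 99.27% in siNT (adjusted p = 0.00894, or 0.178 with the library sets in the fit). The 119-nt exon of Hsph1 was included at 1.8 and 2.22% in the double knockdown, against 0.75, 0.55 and 1.05% in siNT (adjusted p = 0.0139, or 0.305 with the sets).

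The largest difference of all was one that did not pass. An alternative 5′ site of Hyou1 that adds 65 nt was used at 19.01 and 21.41% after Fubp1 knockdown, 30.02 and 31.59% after Khsrp knockdown, 18.65 and 27.61% after double knockdown and 38.31 and 18.68% after Rbm38 knockdown, against 24.41, 30.67 and 36.62% in siNT. The Fubp1 knockdown libraries lay below siNT (-10.36 points, adjusted p = 0.348), but the spread within siNT and within the Rbm38 knockdown was of the same size. A 5′ site of Syvn1 passed in the double knockdown when double knockdown B was left out (15.94 points, adjusted p = 0.0406), with a share of 16.67% in library A and 0% in library B, from 18 and 20 reads.

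**Figure D4:**
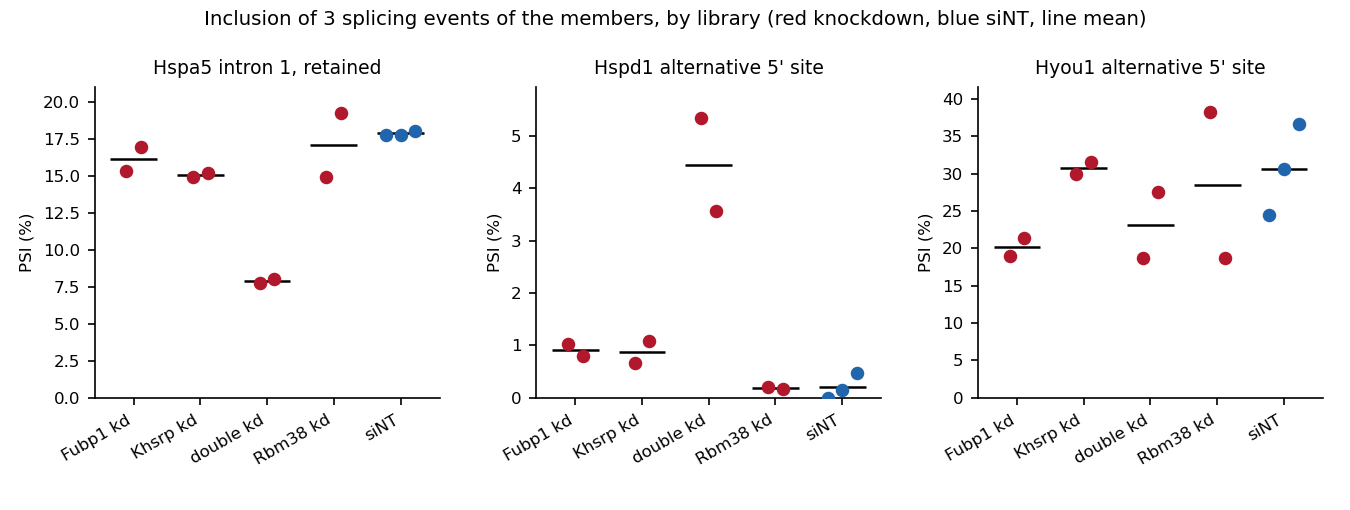
PSI in each library for intron 1 of Hspa5 and the alternative 5′ sites of Hspd1 and Hyou1, with knockdown libraries in red, siNT in blue and lines at group means. The double knockdown points sit at 7.79 and 8.05% for Hspa5 and at 5.34 and 3.57% for Hspd1, apart from the other groups, while the Hyou1 points overlap in most groups.

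Other genes of the same pathways were counted from lists, in the authors' deposited table. Of all genes tested there, 12% were higher and 10.5% lower after Fubp1 knockdown, and 3.82% and 4.34% after Khsrp knockdown. The shares were 13.2% and 13.7% in the double knockdown and 7.96% and 7.02% after Rbm38 knockdown. Several of the counts that follow lie near these shares. Of 16 genes of the PERK arm and integrated stress response, 1 was higher and 9 lower after Fubp1 knockdown (median log2 fold change -0.89), 0 and 3 after Khsrp knockdown, 5 and 3 for the double knockdown, and 2 and 2 after Rbm38 knockdown. Ddit3, which encodes the stress transcription factor CHOP, was lower after Fubp1 knockdown (19.2 RPKM, FDR 2.46e-06) and higher in the double knockdown (74.6 RPKM, FDR 0.00539) and after Rbm38 knockdown (73.5 RPKM, FDR 0.0348), against 45.6 RPKM in siNT, in the authors' deposited table. Cth, an enzyme that makes cysteine, was lower by -2.25 on the log2 scale after Fubp1 knockdown (FDR 8.79e-39), by -1.08 after Khsrp knockdown (FDR 2.23e-09) and by -2.22 in the double one (FDR 1.20e-37) in the authors' deposited table. Slc7a11, the cystine importer, was lower in the same 3 knockdowns, by -1.91, -1.01 and -0.54 on the log2 scale in the authors' deposited table.

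Of 25 other ER folding, translocation and degradation genes, 2 were higher and 7 lower after Fubp1 knockdown, 0 and 4 after Khsrp knockdown, 3 and 8 for the double knockdown, and 5 and 2 after Rbm38 knockdown, in the authors' deposited table. Ero1lb, an oxidase that recharges disulfide isomerases, was lower after Fubp1 knockdown (-1.56, FDR 1.30e-15) and in the double knockdown (-1.18, FDR 1.65e-09) and higher after Rbm38 knockdown (0.61, FDR 0.00249). Of the 6 genes that process ATF6 or resemble it, 0 were higher in any knockdown and the lower ones numbered 1 after Fubp1, 1 after Khsrp, 3 after double and 2 after Rbm38 knockdown. Mbtps2, the protease that makes the second cut in ATF6, was lower in the Fubp1, double and Rbm38 knockdowns by -0.56, -1.20 and -0.79 on the log2 scale in the authors' deposited table.

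In the cytosol, all 8 subunits of the TRiC chaperonin, which folds actin and tubulin, were lower after Fubp1 knockdown (median log2 fold change -0.69), 1 after Khsrp knockdown, 3 after double knockdown and 3 after Rbm38 knockdown, in the authors' deposited table. Cct2 was the subunit lower in every knockdown (-0.52, -0.40, -0.55 and -0.57). Cct2 is abundant, at 945 RPKM in siNT, and among genes with at least 50 RPKM there 29.8% were lower after Fubp1 knockdown. At that level the shares were 7.1%, 26.2% and 19.5% for the Khsrp, double and Rbm38 knockdowns. Of 21 HSF1 and co-chaperone genes, 1 was higher and 3 lower after Fubp1 knockdown, 0 and 1 after Khsrp knockdown, 2 and 2 for the double knockdown, and 0 and 6 after Rbm38 knockdown. Chordc1 and Stip1, co-chaperones of HSP90, were lower after Rbm38 knockdown (-0.99 and -0.79), as they were in the Fubp1 (-0.89 and -0.45) and double knockdowns (-0.60 and -0.55), in the authors' deposited table. Of 6 mitochondrial chaperones and proteases, 0 were higher and 1 lower after Fubp1 knockdown, 0 and 0 after Khsrp knockdown, 0 and 1 for the double knockdown, and 1 and 0 after Rbm38 knockdown.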

How the data were processed

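PolyA RNA libraries were deposited as 3 tables of the whole series. The expression table holds 1 RPKM value per group, with log2 fold changes, p-values and FDR for each knockdown against siNT, made by the authors with Salmon 0.14.1 and edgeR on mm10, per the submitters' processing notes; how libraries were combined into 1 group value was not stated. Per the file headers, a vast-tools table holds PSI in percent and quality text per library, from which inclusion and exclusion reads were taken; its version and build are not named. The authors also deposited a list of events with their calls and 1 PSI score per group, which can slightly exceed 100 and was not used.

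The 33 members and all other lists were chosen with earlier results of these data known. Named were all members by role, from each other list up to 3 genes called in most knockdowns with the largest fold change, and splicing events that passed or differed by 10 points without overlap; others are named as such. Computed here with R 4.3.3, limma 3.58.1 and Python 3.11.15: member counts at the authors' FDR under 0.05; spliced reads per gene (mean of at least 10, voom, effective library size); and PSI of events with mean PSI from 1 to 99 and 0.5 reads added, weighted by counting and between-library variance, both over all 11 libraries. Both fits were tested on simulated data. In 1 Fubp1 library the column name ends in A, while the labels call it replicate B. Library letters were not taken to pair samples: in spliced reads, differences between A and B correlated at 0.117 to 0.45 among siNT and the Fubp1, Khsrp and double knockdowns and at -0.704 to -0.123 between each of these and the Rbm38 knockdown, and in PSI at -0.062 to 0.058. The spliced-read fits were added after the data were seen. The value of 1 marker gene is not reported here.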

Additional observations from a re-analysis of the deposited data

How the results depend on the processing

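Of the authors' calls, an added minimum log2 fold change of 0.58 left 14 members after Fubp1 knockdown, 0 after Khsrp knockdown, 4 in the double knockdown and 4 after Rbm38 knockdown. After Khsrp knockdown, where 1 member was called, an FDR of 0.1 gave 4 and adjustment over genes with at least 1 RPKM gave 3. The median of the members after Fubp1 knockdown was -0.35 from RPKM ratios with a pseudocount of 1 or 0.1. The spliced-read fits, chosen after seeing the data, gave 0 members after Khsrp knockdown in the fits with and without the library sets, by total reads, without weights (limma trend) and with no filter. After Rbm38 knockdown they gave 5 with the library sets, without weights or with no filter. By total reads they gave 13 after Fubp1 knockdown and 7 in the double knockdown, with medians of -0.19 in the double and 0.08 after Rbm38 knockdown, which reversed. With the library sets Dnajc3 in the double knockdown reversed to 0.05. Leaving out 1 library gave 8 to 16 members after Fubp1 knockdown (10 without Fubp1 knockdown B), 0 to 8 after Khsrp knockdown, 4 to 15 in the double knockdown (6 without siNT B) and 3 to 11 after Rbm38 knockdown; the medians ran from -0.56 to -0.47, -0.11 to -0.08, -0.31 to -0.21 and -0.20 to -0.04. A replicate block by library letter, which was not taken to mark a shared origin, gave 16, 8, 12 and 9 members in the same order. The shares of all genes were 37.6%, 38.1%, 53.5% and 42.5%, and 0 member splicing events were called throughout. siNT C alone carries the letter C, so the block takes it out of every comparison. Leaving out siNT C with no block gave 16, 8, 15 and 11 members. For splicing, the authors' deposited table marks 1 tested event after Fubp1, 1 after Khsrp, 2 in the double and 1 after Rbm38 knockdown; with no minimum difference 4 events passed in the double knockdown, 3 against Fubp1 knockdown and 2 against Khsrp knockdown; leaving out 1 library gave 0 to 2 in the double knockdown and 0 elsewhere. These event counts are out of 74 member events. Of the 60139 events of all genes, the authors' deposited table marks 2482 after Fubp1, 1119 after Khsrp, 7144 in the double and 1240 after Rbm38 knockdown. With no minimum difference, 8930 of them passed in the double knockdown, 4290 against Fubp1 knockdown and 4704 against Khsrp knockdown. Of 2024 single-member values under alternatives, 1670 counted as the same, 205 lost and 93 gained a call, 55 moved and 1 reversed. In spliced-read fits the same meant the same side of the threshold, and in the other settings a log2 shift under 0.1. Direction was checked only for members called by the authors. Of 696 event values, 661 stayed on the same side of the adjusted p threshold, 30 lost and 5 gained it. The cause of these shifts was not tested. Against siNT and with all libraries and no added term, the smallest change that passed in spliced reads was that of Canx in the double knockdown, -0.32 on the log2 scale.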

Other observations

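Some members differed more between the 2 libraries of a knockdown than between knockdown and siNT. The log2 ratio of library A to library B in spliced reads had a median size of 0.06 over the 26 members after Fubp1 knockdown, 0.11 after Khsrp knockdown, 0.25 in the double knockdown and 0.25 after Rbm38 knockdown, and 0.12 for siNT. Xbp1 reached 1.7 in the double knockdown and -1.89 after Rbm38 knockdown, beside 0.94 in siNT. Sdf2l1 reached 1.46 and -1.92 in the same 2 knockdowns, beside 0.38 in siNT. Manf (0.45 and -0.81) and Herpud1 (0.51 and -0.7) lay in the same directions with smaller ratios. Hsp90b1 (-0.28 and 0.23), Canx (-0.24 and 0.23), Pdia4 (-0.37 and 0.22) and Hsp90ab1 (-0.29 and 0.25) lay in the opposite ones. In the Fubp1 knockdown no member reached a ratio of 1.

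Reads that run from an exon into an intron were also summed per gene. They come from the same intron entries as the retained-intron PSI, so the Hspa5 shares below are not independent of its intron 1 result. Over all introns of a gene, Hspa5 had 4.72 and 5.14% such reads after Fubp1 knockdown, 3.94 and 3.57% after Khsrp knockdown, 2.80 and 1.79% after double knockdown and 3.32 and 6.51% after Rbm38 knockdown, against 5.15, 5.06 and 4.39% in siNT. Only the Khsrp and double knockdown libraries all lay below siNT. Xbp1 had 2.88 and 3.47% after Fubp1 knockdown, 2.52 and 5.24% after Khsrp knockdown, 1.03 and 3.80% after double knockdown and 3.51 and 1.07% after Rbm38 knockdown, against 2.78, 2.65 and 4.28% in siNT. Its low values were those of double knockdown A and Rbm38 knockdown B, the libraries with the most Xbp1 spliced reads. Creld2 ran from 1.34 to 2.96%, Syvn1 from 1.24 to 2.43% and Ern1 from 0.62 to 1.93% over the 11 libraries. These shares were not tested.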
